A study of Drosophila melanogaster with 2 samples.

Results

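Muscle structure and mesoderm genes were examined for regions bound by a tagged zinc finger protein in whole Drosophila melanogaster embryos. The 44 genes were listed by symbol and divided by role into 28 sarcomere genes, 5 genes of muscle attachment, 5 of myoblast fusion and 6 mesoderm regulators, out of 13945 protein-coding genes on the 6 chromosome arms used. Their symbols were looked up in the Ensembl BDGP6 annotation. All 44 were found, 43 under the listed symbol and Unc-89 under its current symbol Obsc. Msp300 was placed with the sarcomere genes and how with the regulators, and both could be grouped otherwise.

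The study had 1 group of 2 biological replicates, numbered 3 and 1. Both came from 1 transgenic fly strain, CG12236-GFP, whose embryos stably made the protein CG12236 with eGFP joined to its C-terminus, and both were pools of males and females collected 0 to 24 h after laying. Chromatin was sheared by sonication to 200 to 800 bp and precipitated with an antibody against GFP. The sources used here do not name what drives the transgene. There was no second condition, so no difference between conditions could be tested, and a whole embryo mixes muscle with all other tissues, so which cells carried a region cannot be told apart.

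Embryonic muscles of the fly arise from mesoderm that is specified by a cascade of transcription factors. Founder cells then fuse with fusion-competent myoblasts, the resulting fibres anchor to the epidermis through integrins, and only then do they assemble sarcomeres. Sarcomere assembly is therefore a late step, whereas regulators, fusion genes and integrins act earlier. When each gene was expressed was not measured here. CG12236 is a BTB domain zinc finger protein.

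Each deposited list gave a region, a summit and a signal, which was the authors' own value. Both replicates and their pool had 30000 regions each and, by their description, include background. The lowest pooled signal was 16.9, and a pooled region of any strength below means any region listed down to that value. Filtering by irreproducible discovery rate (IDR), a measure of how well ranks repeat between replicates, left the authors with 2426 regions on dm6. These were the 2426 strongest of the pool, with signals from 70.5 to 1067. A region in the IDR list could thus still rank low in 1 replicate. The depth of the libraries is unknown. Signals were compared within a list only, since their level differed between lists. The highest was 354 in replicate 1 and 748 in replicate 3. Coordinates are 1-based on dm6.

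An IDR summit lay within 500 bp of an annotated start of 9 of the 44 genes (20.5%), against 10.2% of all protein-coding genes. The gap depended on the window and on internal starts, of which the members have more, with a median of 2 starts a gene against 1. With a window of 200 bp the counts were 3 members (6.82%) and 7.11% of all genes, and with only the most upstream start they were 5 members (11.4%) and 8.86%. The 9 were the sarcomere genes Msp300, sls and tmod, the integrin genes if and mys, the fusion genes rols and mbc, and the regulators Mef2 and tin. Inside the gene body, an IDR summit was found in 10 of the 44 (22.7%), against 7.54% of all genes. A further 4 genes, mew, rhea, kirre and how, had summits in the body but none at a start, which made 13 genes with any IDR summit and 31 with none. The share of all genes with either kind was not counted, so the 13 cannot be set against it. The genes were chosen as a list with earlier results of these data known, so these shares are descriptions and carry no test.

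The sequences at the summits of these genes are shown first for the 3 of 28 sarcomere genes with an IDR summit, and then for genes of the other roles. Each run has 121 bases, 60 on either side of the summit, which is the middle base, and is written 5′ to 3′ on the strand of the gene from the Release 6 genome. Capitals mark matches to any of 6 motifs described after them, and a run all in lower case holds none. No window touches an annotated untranslated region. The runs are a selection, so their motifs may not be typical. In mbc a stronger intron summit (157 against 89.5), 1196 bp after the start, held no match and is not shown. In mew a stronger summit (121 against 117), 22897 bp after a start, is not shown either.
Msp300, 358 bp before a start, chr2L:5108094-5108214, forward strand: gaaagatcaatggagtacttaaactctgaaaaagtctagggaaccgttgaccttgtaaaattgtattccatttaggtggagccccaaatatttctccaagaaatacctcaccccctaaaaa
sls, 268 bp before the start, chr3L:2115819-2115939, reverse strand: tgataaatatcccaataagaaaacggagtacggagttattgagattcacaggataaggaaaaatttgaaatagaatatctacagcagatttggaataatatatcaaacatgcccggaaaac
tmod, 416 bp before a start, chr3R:30570681-30570801, forward strand: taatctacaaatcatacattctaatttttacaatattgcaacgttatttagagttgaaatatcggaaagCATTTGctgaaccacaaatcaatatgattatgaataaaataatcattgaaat
tmod, 1476 bp after a start, chr3R:30540375-30540495, forward strand: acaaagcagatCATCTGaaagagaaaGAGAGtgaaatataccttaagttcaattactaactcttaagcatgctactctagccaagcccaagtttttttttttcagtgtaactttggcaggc
if, 210 bp after a start, chrX:16782275-16782395, reverse strand: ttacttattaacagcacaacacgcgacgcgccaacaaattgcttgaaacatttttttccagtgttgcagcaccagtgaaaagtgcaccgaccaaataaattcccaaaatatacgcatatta
mew, 5620 bp after a start, chrX:13251503-13251623, reverse strand: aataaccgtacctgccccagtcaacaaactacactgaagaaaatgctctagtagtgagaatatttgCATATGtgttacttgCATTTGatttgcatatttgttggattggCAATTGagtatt
rhea, 2744 bp after a start, chr3L:8549359-8549479, forward strand: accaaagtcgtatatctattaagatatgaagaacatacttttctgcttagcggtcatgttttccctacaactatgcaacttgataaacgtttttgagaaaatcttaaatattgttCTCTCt
rols, 452 bp before a start, chr3L:12056866-12056986, reverse strand: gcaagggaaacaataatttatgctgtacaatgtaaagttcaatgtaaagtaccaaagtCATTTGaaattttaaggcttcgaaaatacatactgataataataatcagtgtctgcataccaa
kirre, 2311 bp before a start, chrX:3097179-3097299, forward strand: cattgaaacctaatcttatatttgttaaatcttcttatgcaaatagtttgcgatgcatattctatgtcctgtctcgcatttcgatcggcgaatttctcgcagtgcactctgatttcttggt
mbc, 2472 bp after the start, chr3R:23784177-23784297, forward strand: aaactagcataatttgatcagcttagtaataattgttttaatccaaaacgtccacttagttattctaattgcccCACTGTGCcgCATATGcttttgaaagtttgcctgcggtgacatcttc
how, 7116 bp after the start, chr3R:22049247-22049367, forward strand: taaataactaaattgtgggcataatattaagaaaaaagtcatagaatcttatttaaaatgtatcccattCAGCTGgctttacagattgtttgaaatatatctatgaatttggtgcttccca
tin, 182 bp before the start, chr3R:21378735-21378855, forward strand: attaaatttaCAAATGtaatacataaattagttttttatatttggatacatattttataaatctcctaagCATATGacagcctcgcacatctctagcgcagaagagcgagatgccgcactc

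Motifs were searched on both strands within 100 bp of each summit. The E-box CANNTG, the core sequence read by basic helix-loop-helix factors such as twi and nau, occurred at 23 of the 33 member summits (69.7%) and at 63.7% of all 2426. In the sequences shown it is CATATG at mew, mbc and tin, CATTTG at mew, rols and the tmod summit 416 bp before a start, CATCTG at the other tmod summit, CAATTG at mew, CAAATG at tin and CAGCTG at how. GAGAG, the core of the sites of GAGA factor, occurred at 9 (27.3%) against 25% of all. The word CACTGTGC, taken from earlier work on these data, was found at 2 member summits (6.06%), 1 in mbc and 1 in kirre, against 4.82% of all. The MEF2 site occurred at 2, in Msp300 and kirre (6.06% against 9.6%), and TNAAGTG, a site of tin, at 4, in rols, kirre, mbc and Mef2 (12.1% against 14.6%). The replication-related element TATCGATA was found at 0 (3.3% of all). E-boxes and TNAAGTG can overlap, as CACTTGA holds both. These shares rest on 33 summits and were not tested. The median GC content of the windows was 36.3% against 36.8%.

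The sarcomere genes were the largest role and the one with the lowest share of peaks at starts, 3 of 28 (10.7%), near the 10.2% of all genes. This order did not hold throughout, since in the 1213 strongest IDR regions sarcomere genes still had 3 while attachment genes and regulators had 0, and in replicate 3 regulators had 0. At Msp300, which encodes a nesprin that ties muscle nuclei to the cytoskeleton, the pooled signal was 267 (rank 150), and it was 79.5 in replicate 1 (rank 265) and 188 in replicate 3 (rank 119). It was the strongest of the 33 member summits in the pool and in both replicates. This summit (region 2L 5108055 to 5108270) lay 7277 bp into the gene (FBgn0261836, 2L 5100877 to 5207002), in an intron of the long transcripts and 358 bp before an internal start.

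At sls, the gene of the titin-like giant proteins that span the Z-disc and I-band, the summit lay 268 bp before the only annotated start (region 3L 2115667 to 2116090). Its signal was 187 in the pool (rank 364), 55.7 in replicate 1 (rank 635) and 130 in replicate 3 (rank 309). No other protein-coding start was nearer than 35821 bp. The pool listed 2 regions of any strength within 500 bp of this start, of which this was the stronger, and 2 inside the 75.9 kb body of sls, where the IDR list had none.

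Tropomodulin, which caps the pointed ends of thin filaments, is encoded by tmod, whose 46.3 kb body has 9 annotated starts. Its promoter summit (region 3R 30570529 to 30570952) was 416 bp before the last of them and 38134 bp from the first, with signals of 120 in the pool (rank 921), 37.8 in replicate 1 (rank 1443) and 83.1 in replicate 3 (rank 793). A stronger summit lay in an intron 1476 bp after another start (region 3R 30540331 to 30540506), with 199 in the pool (rank 318), 53.6 in replicate 1 (rank 673) and 143 in replicate 3 (rank 242). Both summits were among the strongest 2426 of each replicate.

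Of the 17 genes of the thick and thin filaments, 1 had an IDR summit at a start (5.88%, against 10.2% of all genes), which was tmod. Among 6 genes of the thick filament, the myosin heavy chain gene Mhc, the light chain genes Mlc1 and Mlc2, the paramyosin gene Prm, the flightin gene fln and the myofilin gene Mf, the count was 0 at starts and 0 in bodies, and 6 genes are too few to set against the 10.2% and 7.54% of all genes. The strongest pooled region at a start was that of Mhc, with a signal of 19.6 at rank 23843, close to the lowest signal of the list, 16.9. Mf followed with 17.8 at rank 27700, and the other 4 had no pooled region at a start.

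The thin filament genes other than tmod ranged from no region to moderate ones. Tm1, 1 of 2 tropomyosin genes here, came closest to the IDR list, with 5 pooled regions at its starts, the strongest with a signal of 50.9 (rank 4225) at 37 bp after a start. The strongest region at its starts was another one in each replicate, with 24.7 in replicate 1 (rank 3526, at -143 bp) and 25.7 in replicate 3 (rank 6258, at -169 bp). Tm1 also had 19 pooled regions in its 30.6 kb body, none strong enough for the IDR list. The troponin I gene wupA reached 21.1 (rank 20972) and the troponin T gene up 18.1 (rank 26957). Of the 5 troponin C genes, TpnC25D had 23.4 (rank 17486) and TpnC47D 17.1 (rank 29519), and TpnC4, TpnC41C and TpnC73F had no pooled region at a start. The second tropomyosin gene Tm2 and Mp20, which encodes a calponin-like protein, had none either.

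In the Z-disc and giant protein genes besides sls and Msp300, pooled signals at starts ran from 17.5 at Zasp66 to 36.6 at Strn-Mlck (rank 7681), with Zasp52 at 34.1 (rank 8680). The LIM protein genes Mlp84B and Mlp60A had 28.0 and 25.3, the alpha-actinin gene Actn had 24.5, and the projectin gene bt had 24.3. Zasp67 and the obscurin gene Unc-89 had no pooled region at a start or in the body. Among all 44 genes, 7 were without any pooled region at a start or in the body, and all 7 were sarcomere genes (Mlc1, fln, TpnC4, TpnC41C, Mp20, Unc-89 and Zasp67). All but Unc-89 (18.7 kb) had bodies under 10 kb, and sarcomere genes make up 14 of the 19 members that short. The share of all protein-coding genes without any pooled region was not counted, so these 7 cannot be set against it. A pooled region of any strength lay at any start of 17 of 28 sarcomere genes (60.7%) and 31 of all 44 (70.5%), against 51.8% of all genes. Sarcomere genes have a median of 3 starts, against 1 for all genes. With only the most upstream start, 20 of the 44 had such a region. The share of all genes was not counted for that setting, so whether weak regions are scarce per start was not tested.

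**Figure D1:**
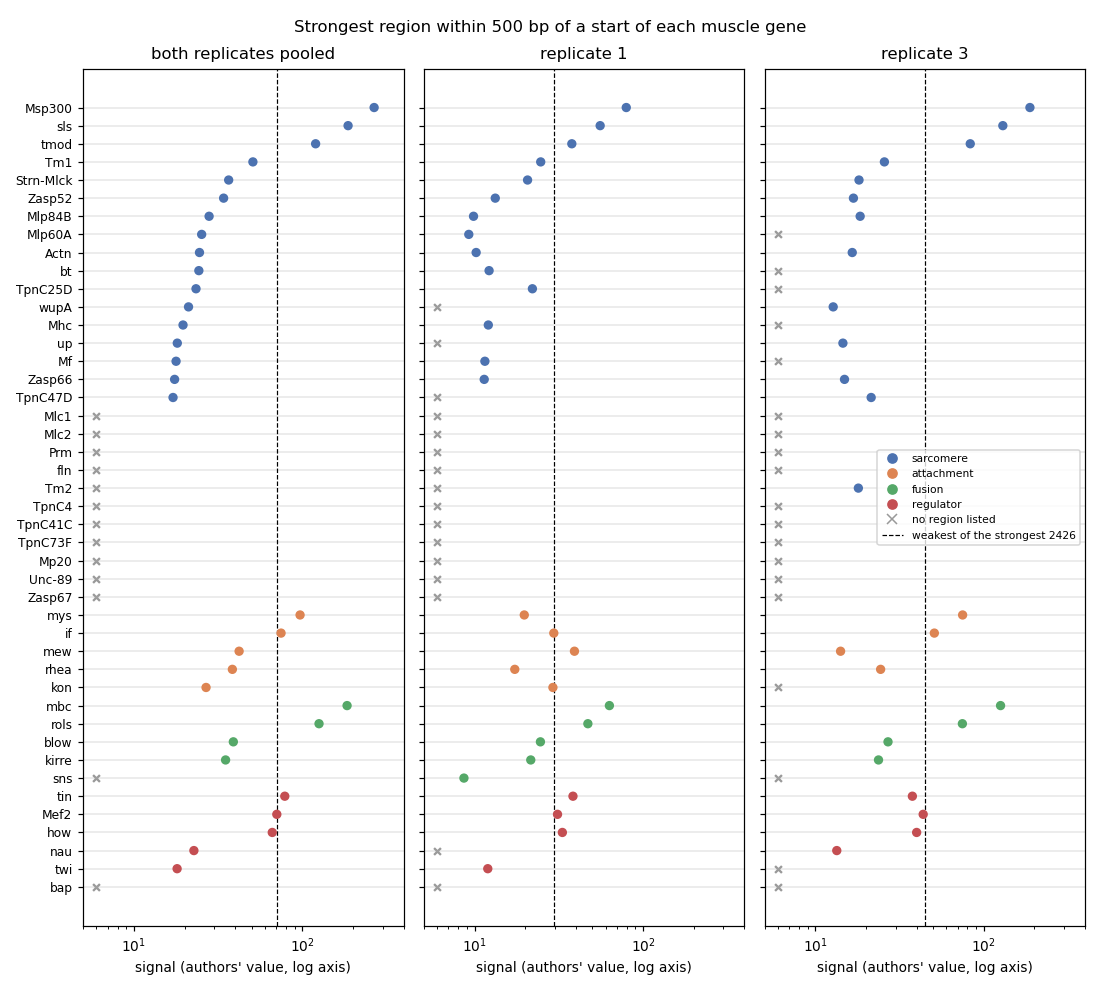
Signal (authors' value, log axis) of the strongest region within 500 bp of any start of each of the 44 genes, 1 point per gene, in the pooled list, replicate 1 and replicate 3. Crosses mark genes with no region listed, and dashed lines the weakest of the 2426 strongest regions (70.5 in the pool, 29.5 in replicate 1, 44.5 in replicate 3). Msp300, sls and tmod lie right of the line in all 3 panels, and all other sarcomere genes left of it.

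Attachment genes had a peak at a start in 2 of 5 (40.0%) and in the body in 3 of 5 (60.0%), against 10.2% and 7.54% of all genes, and 15.8% and 29.5% of genes of 10 kb or more, which 4 of the 5 are. In all, 4 of the 5 had an IDR summit of some kind, a count with no share of all genes to set beside it. The mys gene encodes the beta subunit of the PS integrins, which link the fibre end to the tendon cell. Its summit was 15 bp before its single start (region X 8061418 to 8061841), with a signal of 97.0 in the pool (rank 1364). The replicates differed there, with 19.7 in replicate 1 (rank 5650) and 74.9 in replicate 3 (rank 967). A start of fs(1)h, which encodes a BET bromodomain protein, was 194 bp from the same summit, so that region counts for both genes.

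The alpha subunit genes if and mew showed different positions. At if (alpha PS2) the summit was in the first intron, 210 bp after an internal start (region X 16782123 to 16782546), and its signal of 74.8 (rank 2203) was close to the lower end of the IDR list. Replicate 1 gave 29.5 (rank 2425) and replicate 3 gave 50.9 (rank 1944). At mew (alpha PS1) 3 summits lay in introns, at 5620, 22897 and 24583 bp after a start, with pooled signals of 117, 121 and 87.7. The strongest pooled region at a start of mew itself had a signal of 42.2 (rank 5910). That region ranked 1344 in replicate 1 but 20773 in replicate 3.

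The talin gene rhea, whose product couples integrins to actin, had 2 summits in an intron. The stronger was 2744 bp after a start (109 in the pool, 45.2 in replicate 1, 64.8 in replicate 3) and the weaker 517 bp after it (83.0, 30.2 and 52.3), just outside the 500 bp window. With a window of 1000 bp rhea was added and 10 genes had a peak at a start, but the share of all genes was not counted for that window. Only kon, a transmembrane protein gene needed for muscles to reach their targets, had no IDR summit, and its start region had a pooled signal of 26.8 (rank 13506).

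Fusion genes had a peak at a start in 2 of 5 (40.0%) and in the body in 3 of 5 (60.0%), against the same 10.2% and 7.54% of all genes or, since 4 of the 5 are long, 15.8% and 29.5%. In mbc, whose product activates Rac in the fusing myoblast, 5 summits fell within 2649 bp around the start. The strongest, 177 bp before it (region 3R 23781524 to 23781640), had a signal of 184 in the pool (rank 379), 63.2 in replicate 1 (rank 463) and 126 in replicate 3 (rank 328). It was nearer to a start of the gene that encodes the nucleoporin Nup98, 33 bp away on the other strand, so it cannot be given to 1 of the pair. The summit 22 bp after the mbc start had 88.1 (rank 1657), and 3 summits in the first intron had 157, 86.5 and 89.5. The regions of the summits 177 bp before and 22 bp after the start overlap. So do those of the summits 1196 and 1421 bp after it, so the 5 need not be separate sites.

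The adaptor gene rols had 1 summit 452 bp before an internal start (region 3L 12056714 to 12057137), with a signal of 126 in the pool, 47.1 in replicate 1 and 74.7 in replicate 3. A second lay in the first intron, 1823 bp after the first start, with 81.5 in the pool. Each of these ranked from 920 to 2505 in the replicates.

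The gene of the founder cell adhesion receptor, kirre, spans 394.1 kb and held 10 IDR summits, more than any other member. Per 100 kb of body that was 2.54, lower than in every other member with a body summit except Msp300 (0.942). The strongest (region X 3097098 to 3097332) lay in an intron 2311 bp before an internal start, with a signal of 247 in the pool (rank 184), 69.0 in replicate 1 (rank 383) and 177 in replicate 3 (rank 144). At 3 of the 10 the start of another gene was within 500 bp, Syx4 at 280 and 224 bp and the Notch receptor gene N at 381 bp. The other 7 were over 500 bp from any start. At its own starts kirre had 3 pooled regions, the strongest with a signal of 35.0 (rank 8265).

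Neither sns, which encodes the partner of kirre on fusion-competent myoblasts, nor blow, a gene of actin remodelling at the fusion site, had an IDR summit. The strongest region at a start of blow had a pooled signal of 39.0 (rank 6829), and sns had no pooled region at its start.

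**Figure D2:**
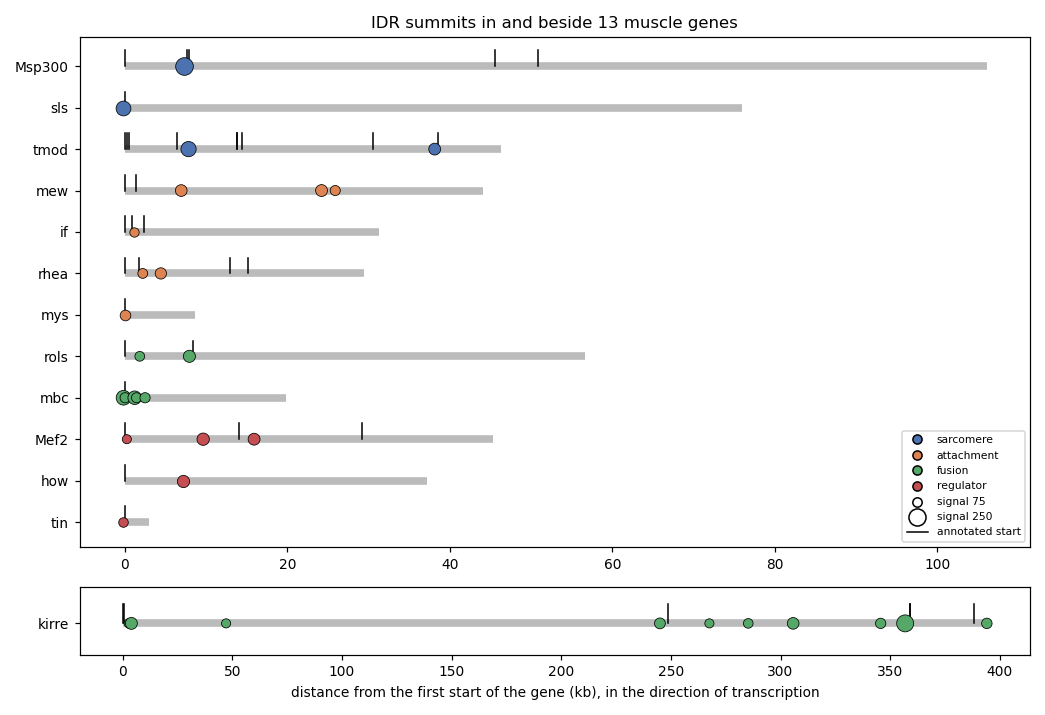
Positions of the 33 IDR summits of 13 muscle genes along each gene, drawn from its first start in the direction of transcription (x axis, kb), with kirre on a scale of its own. Circles are summits with area proportional to pooled signal and colour by role, grey bars gene bodies and short black lines annotated starts. The strongest circles are those of Msp300 and kirre, and the 5 of mbc crowd at its start.

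The 6 regulators had peaks at 2 starts (33.3%, against 10.2% of all genes) and in 2 bodies (33.3%, against 7.54%). Of the 6, 3 are 10 kb or more, and these held 1 of the starts and both bodies. Among all genes of that length the shares were 15.8% and 29.5%. Mef2 encodes the MADS box factor that switches on muscle genes, and its 3 summits differed in strength. The strongest were in an intron 4466 bp before an internal start (region 2R 9949018 to 9949441), with 130 in the pool, 62.1 in replicate 1 and 72.5 in replicate 3, and in a 5′ untranslated exon 1803 bp after that start, with 121, 49.1 and 71.3. The third, 229 bp after the first start, had a signal of 70.6 at rank 2420, just inside the IDR list.

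At tin, the homeobox gene of the dorsal mesoderm and heart, the summit lay 182 bp before the start (region 3R 21378583 to 21379006), with a signal of 78.7 (rank 2025). It ranked 1398 in replicate 1 and 3202 in replicate 3. At how, which encodes an RNA-binding protein of muscle and tendon, 1 summit was in an intron 7116 bp after the start (129 in the pool, 41.7 in replicate 1, 82.3 in replicate 3). The strongest region at the how start fell just below the IDR list, with 66.3 at rank 2684.

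The remaining regulators were low. The gene of the basic helix-loop-helix factor twi, which sets up the mesoderm, had a start region of 18.1 (rank 27085), and nau, the fly relative of MyoD, had 22.7 (rank 18444). At bap, a homeobox gene of the visceral mesoderm, no pooled region lay at the start. The regulator count was the one most tied to a single replicate. Among the 2426 strongest regions, starts of 3 regulators (Mef2, tin and how) were hit in replicate 1 and 0 in replicate 3.

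**Figure D3:**
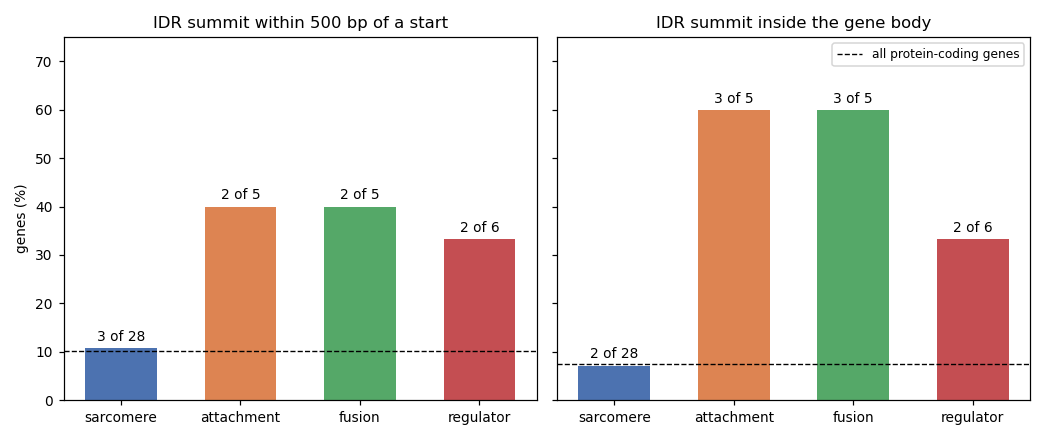
Share of genes (%) with an IDR summit within 500 bp of a start (left) and inside the gene body (right), by role, with the count above each bar. Dashed lines give all protein-coding genes, 10.2% and 7.54%. Sarcomere genes sit near the lines (3 and 2 of 28), and the other 3 roles above them, each with only 5 or 6 genes.

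Over all 44 genes, a summit among the 2426 strongest lay at a start of 10 members in replicate 1, where 10.7% of all genes had one, and of 7 members in replicate 3, where 10% of all genes did. It lay there in both replicates for 6 members, and for 7.33% of all genes. The 3 sarcomere genes and the 2 fusion genes were hit in both replicates. In replicate 1 mew and how were added and mys was missing, and in replicate 3 Mef2 and tin were missing. All 33 IDR summits had a summit within 200 bp in both replicate lists, at most 168 bp away. The IDR list was made from the same replicates, so such matches are not separate support. Of the 33, 24 ranked within 2426 in replicate 1 and 30 in replicate 3, with 21 shared by them. The same counts were not made for all 2426 IDR summits. The lowest rank was 12737 in replicate 1, for a kirre summit that ranked 1552 in replicate 3.

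**Figure D4:**
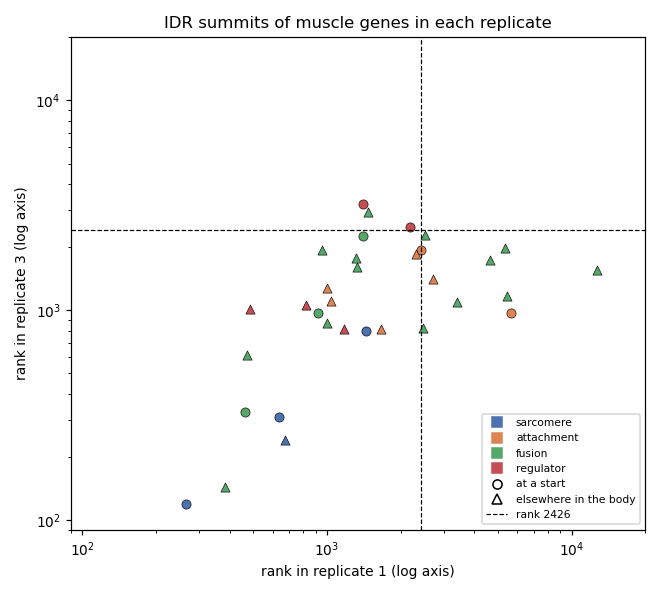
Rank of each of the 33 IDR summits in replicate 1 (x) and replicate 3 (y), both log axes, where rank 1 is the strongest region. Colours give the role, circles summits at a start and triangles others, and dashed lines rank 2426. Most points, 21 of 33, lie inside both lines, and mys stands to the right at rank 5650 in replicate 1.

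Gene length moved with these counts. The median body of the 44 genes was 13.4 kb, against 2.17 kb for all genes, and a longer body has more room for summits and often more starts. Among the 25 members of 10 kb or more, 7 had a peak at a start (28.0%) and 10 in the body (40.0%), against 15.8% and 29.5% of all genes of that length. Among the 19 shorter members, 2 had a peak at a start (10.5%) and 0 in the body, against 9.33% and 3.92%. The long members were themselves longer, with a median of 37.1 kb against 20.6 kb for all genes of 10 kb or more. The part of length in the shares was not tested beyond these values.

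The long genes were also counted by role, with a median body of 26.4 kb for sarcomere genes and 44.1 kb for the other 3 roles. Of 14 long sarcomere genes, 3 had a peak at a start (21.4%) and 2 in the body (14.3%). Of 11 long genes of the other 3 roles, 4 had a peak at a start (36.4%) and 8 in the body (72.7%). Per 100 kb of gene body, sarcomere genes held 0.522 IDR summits, attachment genes 4.63, fusion genes 2.99 and regulators 2.57, and all protein-coding gene bodies 1.63. In the strongest 2426 of each replicate, sarcomere genes had 0.696 per 100 kb in both, attachment genes 4.63 in both, fusion genes 1.87 in replicate 1 and 2.80 in replicate 3, and regulators 2.57 and 1.93. The values for all gene bodies were 1.68 and 1.65. Sarcomere bodies were thus the lowest of the 4 roles, and below all genes, in each list. This did not hold for every part of the sarcomere role. In the IDR list the thin filament genes had 1.67 per 100 kb, with every summit in tmod. The thick filament genes had 0. The Z-disc and giant protein genes, with sls and Msp300, had 0.249 and made up 401 of the 575 kb of sarcomere bodies. Pooled regions of any strength gave 19.0 per 100 kb for sarcomere genes and 44.0, 25.4 and 30.9 for the other roles, against 23.9 for all genes. Within the sarcomere role they gave 31.65 for thin filament, 20.59 for thick filament and 14.96 for Z-disc and giant protein genes. The summits behind these densities were few, 3 in sarcomere genes, 6 in attachment genes, 16 in fusion genes and 4 in regulators.

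**Figure D5:**
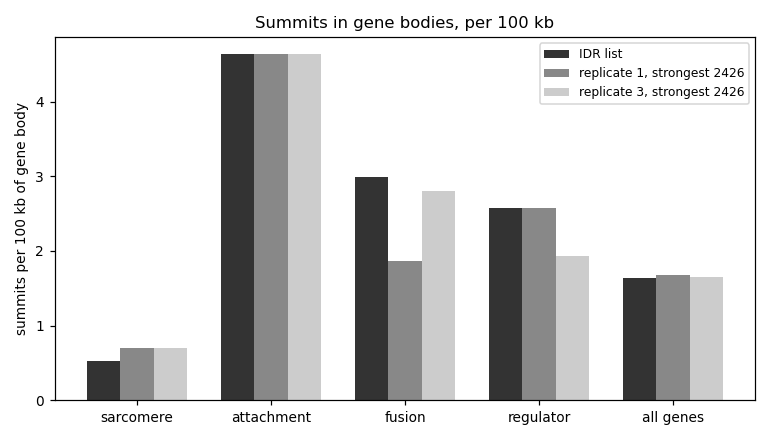
Summits per 100 kb of gene body, by role and for all protein-coding genes, in the IDR list and in the 2426 strongest regions of each replicate. Sarcomere genes have the lowest bars (0.522 to 0.696) and attachment genes the highest (4.63 in each list).

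The 10 member summits at starts had a median signal of 109 (range 70.6 to 267), and the 1100 IDR summits at starts of any gene a median of 106. The members' median position was -179.5 bp from the nearest own start, where minus means upstream, and 7 of 10 were upstream. For the 1100 summits the median was -90.5 bp and 79.0% were upstream, measured from the nearest start of any gene. The measures differ, so these positions cannot be set against each other. The mbc summit 177 bp before its own start, for example, lay 33 bp from a start of the Nup98 gene. Only 5 of the 9 genes, sls, mys, mbc, Mef2 and tin, had the peak at their first start, and the other 4, Msp300, tmod, if and rols, had it at an internal one. A window of 200 bp kept 3 genes, mys, mbc and tin. The count thus rests on a window wide enough for summits that sit 200 to 500 bp from a start. Of the 29 summits in bodies, 25 were in introns, and 20 of all 33 lay within 3 kb of a start of the gene.

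A second list of 92 muscle genes that are not members, picked by role, had an IDR summit at a start in 13 (14.1%), against the 10.2% of all genes. The share was 4 of 24 for further sarcomere and excitation genes (16.7%), 4 of 21 for attachment (19.0%), 3 of 14 for fusion (21.4%) and 2 of 33 for regulators (6.06%). Their median body was 8.18 kb. Among attachment genes, Pax, which encodes the integrin adaptor paxillin, had 2 summits with signals of 213 (with Alp12 251 bp away) and 193. The adaptor gene CAP had 2 with 140 and 125, the tensin gene by had 135 and the vinculin gene Vinc 96.6. The fusion genes were the actin regulators Hem (160, with IleRS 128 bp away), Arp3 (115, with msk 67 bp away) and WASp (78.0). Further sarcomere and excitation genes were the formin gene Fhos (292), the dystroglycan gene Dg (156, with mRpL34 172 bp away), the dystrophin gene Dys (148) and the metabolic gene Gpdh1 (91.1, with Sfp26Ad 329 bp away). The 2 regulators were the T-box gene org-1 (104) and da (101), which encodes the general partner of helix-loop-helix factors.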

How the data were processed

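Chromatin immunoprecipitation and sequencing of 1 group of 2 biological replicates gave 4 narrowPeak lists on dm6. Per the README files deposited with them, the authors made each replicate list from its alignment and a control alignment, the pooled list from both alignments and that control, and the optimal IDR list from the other 3. The sources used here do not name the aligner, the peak caller, the IDR threshold or the read depth. Column 7 is the authors' signal, whose scale is not given, column 9 the deposited −log10 q value (3.82 for every IDR region, not used for ranks) and column 10 the summit offset. No other file was used. Lists on dm3 were not used.

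Starts and bodies of 13945 protein-coding genes came from Ensembl release 115 (BDGP6.54), and sequence from the RefSeq Release 6 genome. A gene had a peak at a start if a summit lay within 500 bp of any transcript start. Replicate summits were matched within 200 bp. Members and lists were chosen with earlier results of these data known, so no test was run over them. Named genes were every member with an IDR summit and, per role, the strongest others, and other members were added after their values were seen. Assignment was checked on planted summits. Alternatives were windows of 200 and 1000 bp, 1 start per gene, the stronger 1213 regions, each replicate alone and matching at 100 and 500 bp. Python 3.11.15, numpy 2.4.6, pandas 2.3.3 and matplotlib 3.10.9 were used.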

Additional observations from a re-analysis of the deposited data

How the results depend on the processing

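All results here are counts, with no test, and were called unchanged when within 1.5 times. Genes with an IDR summit at a start numbered 9, and 3 with a window of 200 bp, 5 with only the most upstream start and 5 in the 1213 strongest IDR regions (5.51% of all genes). They were 10 with 1000 bp, where the share of all genes was not counted. They were 7 to 10 in single replicates, and 9 where the nearest start had to be the member's own (chosen after seeing the data). For sarcomere genes (3) the window of 200 bp gave 0 and the most upstream start 1. For attachment genes (2) these gave 1 and 1, for fusion genes (2) 1 and 1, and for regulators (2) the window of 200 bp gave 1. Those 1213 left 0 attachment genes and 0 regulators. Regulators numbered 0 to 3 over single replicates, 0 without replicate 1. Members with a pooled region at a start (31) fell to 20 with the most upstream start and to 17 in the 10000 strongest regions, with no share of all genes counted for either. Genes with a summit in the body (10) ranged from 8 to 11 over their alternatives. The 29 summits in bodies became 14 in those 1213 and 19 without kirre (chosen after seeing the data), 24 to 28 in single replicates, and 20 over 500 bp from any start. Promoter summits found in both replicates covered 9 genes, and 8 within 100 bp. The IDR list was made from the same replicates, so such matches are not separate support. No paired analysis was possible because the study has a single group. The depth of the libraries is unknown and each list stops at 30000 regions. A gene with no region thus had none strong enough to be listed, and whether it was bound was not tested.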

Other observations

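Some start regions of muscle genes stood far apart in rank between the replicates without reaching the IDR list. The start of kon had a signal of 29.2 (rank 2490) in replicate 1 and no region in replicate 3, and the start of TpnC25D had 22.0 (rank 4480) in replicate 1 and none in replicate 3. In the other direction, TpnC47D had 21.5 (rank 9053) and Tm2 18.0 (rank 12879) in replicate 3, and neither had a region at a start in replicate 1.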
